A study of Mus musculus with 56 samples.

Results

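The genes followed here encode the receptor complex by which epithelial cells take up filtered or luminal proteins: Lrp2 (megalin), Cubn (cubilin), Amn (amnionless), Dab2 and Lrpap1. They were chosen by name as partners of 1 pathway, with earlier results of these data known, and all 5 were found by symbol among the 53379 genes of the count table. Their RNA was followed through 7 regions of the male mouse tract, namely the testis, efferent ductules, initial segment of the epididymis, its caput, corpus and cauda, and the vas deferens. All animals were C57BL/6 males, and each region was sampled at 3 months and at 21 months of age with 4 libraries, giving 14 groups and 56 libraries. By the study's methods both sides of a mouse were dissected and the regions of an age came from the same mice, but the sources used here do not tie a replicate number to a mouse. Each library is whole tissue, in which fewer cells of a type and less RNA per cell cannot be told apart.

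Megalin is a giant member of the LDL receptor family that spans the apical membrane and binds many proteins at once, among them vitamin carriers, hormones and clusterin. Cubilin has no membrane anchor and reaches the surface only with amnionless, which carries it. Dab2 is the adaptor that links the tail of megalin to clathrin, and Lrpap1 (the receptor-associated protein, RAP) is a chaperone that holds newly made LDL receptor family proteins free of ligand on their way through the endoplasmic reticulum. The complex is best known from the kidney proximal tubule. In the male tract the efferent ductules reabsorb most of the testicular fluid and the proteins in it, and epididymal epithelium also takes up luminal proteins.

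In GENCODE M21 on the mouse build GRCm38, Lrp2 (ENSMUSG00000027070) lies on the minus strand at chr2:69424340-69586065 and Cubn (ENSMUSG00000026726) on the minus strand at chr2:13276338-13491813. Amn (ENSMUSG00000021278) lies on the plus strand at chr12:111271095-111276426, Dab2 (ENSMUSG00000022150) on the plus strand at chr15:6299788-6440712, and Lrpap1 (ENSMUSG00000029103) on the minus strand at chr5:35091501-35105766. Lrp2 and Cubn have some of the longest messages of the genome, with 16701 and 14935 bp of merged exons, longer than 99.5% and 99.2% of the genes in the table. The exons of Dab2 sum to 7342 bp, those of Lrpap1 to 4116 bp and those of Amn to 1843 bp. An exon of Gm13270 on the opposite strand shares 368 bp with Cubn, and since the strand setting of the counting is not given in the sources used here, a part of the low Cubn counts could belong to it.

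The sequences before the start sites of Lrp2, Cubn and Amn are shown so that what lies before their starts can be compared. These are 3 of the 4 genes with their highest 3-month mean in the efferent ductules, and the window of the other, Dab2, is not printed. Each line gives the 250 bases before a RefSeq start site (GRCm38.p6), 5′ to 3′ on the strand of the gene, and capitals mark the motifs found.
Lrp2: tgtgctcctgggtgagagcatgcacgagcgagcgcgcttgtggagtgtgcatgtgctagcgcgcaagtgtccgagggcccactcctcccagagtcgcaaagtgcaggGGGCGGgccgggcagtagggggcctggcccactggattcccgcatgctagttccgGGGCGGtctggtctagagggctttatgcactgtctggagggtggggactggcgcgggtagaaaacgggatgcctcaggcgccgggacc
Cubn: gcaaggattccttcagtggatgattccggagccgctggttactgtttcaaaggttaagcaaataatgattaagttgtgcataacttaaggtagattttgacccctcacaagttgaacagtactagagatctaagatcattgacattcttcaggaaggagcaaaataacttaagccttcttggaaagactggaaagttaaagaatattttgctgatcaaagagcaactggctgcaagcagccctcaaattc
Amn: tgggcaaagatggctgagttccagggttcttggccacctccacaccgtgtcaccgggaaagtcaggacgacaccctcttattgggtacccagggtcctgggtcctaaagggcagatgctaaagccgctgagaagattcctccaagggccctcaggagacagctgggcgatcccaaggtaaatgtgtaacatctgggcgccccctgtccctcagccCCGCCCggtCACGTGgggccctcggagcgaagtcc
These windows lie at chr2:69586030-69586279, chr2:13491877-13492126 and chr12:111270846-111271095.

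Motifs were searched on both strands of the windows, among them the GC box GGGCGG, the nuclear receptor half-site AGGTCA, the HNF4 core CAAAGTCCA, the palindromic estrogen response element and the E-box CACGTG. Lrp2 held 2 GC boxes, starting 143 and 88 bases before the start site. Amn held 1 GC box on the opposite strand (printed as CCGCCC) and 1 E-box, starting 35 and 26 bases before the start. None of the motifs named here was found in the Cubn window. Among 32851 promoter windows of the same length, 32.7% held the GC box, 14% the AGGTCA half-site, 0.384% the HNF4 core, 0.0639% the estrogen response element and 6.02% the E-box. A match is a description of the letters only.

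The libraries held between 11125279 and 20561967 counts on genes, with a median of 16384049. Levels are given as CPM (counts scaled to a common library size) after TMM scaling over all 56 libraries, as mean ± SD of 4 libraries. Some libraries stood apart. In the 3-month cauda, replicate 3 had a summed level of 3983 CPM for 12 macrophage markers and 9627 CPM for 10 fibroblast markers, against 548 to 579 and 2444 to 2703 CPM in the other 3 libraries. In the 21-month initial segment, replicate 1 had 327 CPM for 10 multiciliated cell markers against 105 to 169 CPM in the other 3. Gm42418, a gene that overlaps ribosomal RNA sequence, took 1.27 to 3.29% of the counts of the efferent ductules at 3 months and 4.93 to 22.2% at 21 months. In replicate 2 of the 3-month caput it took 49.7%, against 6.54 to 9.49% in the other 3 libraries, and that library has the highest Dab2 and Lrpap1 levels of its group. The efferent ductules had the highest sum of 14 absorptive cell markers at 3 months, with 2653 to 3005 CPM against 291 to 328 CPM in the testis. These markers are not particular to the efferent ductules, since the corpus held 1622 to 1870 CPM, the cauda 1172 to 1576 and the caput 1232 to 1286. A list of 12 kidney markers summed to 232 to 402 CPM in the young efferent ductules and 95.5 to 138 CPM in the old, with 2 of its genes at 0 in all libraries of an age. The 402 CPM belong to replicate 4, the library with the most Cubn. By the age test given below, 2 of the 9 tested there rose (Aqp2 and Slc34a1) and 1 fell (Cyp2e1), where 4% of all genes rose and 2.98% fell. The lower sum thus does not describe the list as a whole.

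Megalin RNA was abundant in the efferent ductules, the corpus and the cauda, and lower in the other 4 regions. In the efferent ductules of the 3-month-old mice, the 4 libraries gave 2472, 2231, 2599 and 2344 CPM (2411 ± 159). The cauda followed with 1866, 1843, 973 and 1942 CPM (1656 ± 458) and the corpus with 963, 1044, 1083 and 967 CPM (1014 ± 59.3). The vas deferens held 204 ± 14.5 CPM, the initial segment 137 ± 37.5, the caput 59.7 ± 25.2 and the testis 3.501 ± 0.466, which rests on 55 to 72 counts a library. The low cauda value belongs to replicate 3, the library with high macrophage and fibroblast markers, and without it the cauda mean was 1884 ± 51.6 CPM (n = 3). Each step of this order passed the edgeR quasi-likelihood test after Benjamini-Hochberg adjustment over all genes (adjusted p = 0.0143 for the efferent ductules against the cauda and 0.0135 for the cauda against the corpus), although single libraries of the cauda and corpus, and of the initial segment and caput, overlapped. The step from the cauda to the corpus depended on the libraries used: its adjusted p was 0.000700 without replicate 3 of the cauda, but 0.0530, 0.101 and 0.0809 when all libraries of replicate number 1, 2 or 4 were left out.

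The sharpest steps of Lrp2 lay at both borders of the efferent ductules and between the caput and the corpus. From the testis to the efferent ductules the level differed by 9.47 on the log2 scale, and from the efferent ductules to the initial segment by -4.10. From the caput to the corpus it differed by 4.00, and from the cauda to the vas deferens by -2.87 (-3.04 without replicate 3 of the cauda). At 21 months the order of the means was the same, with 1669 ± 71.3 CPM in the efferent ductules, 1655 ± 115 in the cauda and 1025 ± 54.3 in the corpus, but the efferent ductules and the cauda did not pass the test (1.08-fold, adjusted p = 0.850), nor did the cauda and the corpus (1.53-fold, adjusted p = 0.209) or the initial segment and the caput (1.099-fold, adjusted p = 0.871), although the libraries of the cauda and corpus did not overlap. With library size only, the old cauda lay 0.95 above the corpus on the log2 scale and passed (adjusted p = 0.0341). Without replicate 1 of the old initial segment the caput was 0.64 above the initial segment on the log2 scale (adjusted p = 0.0976), the opposite direction.

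**Figure D1:**
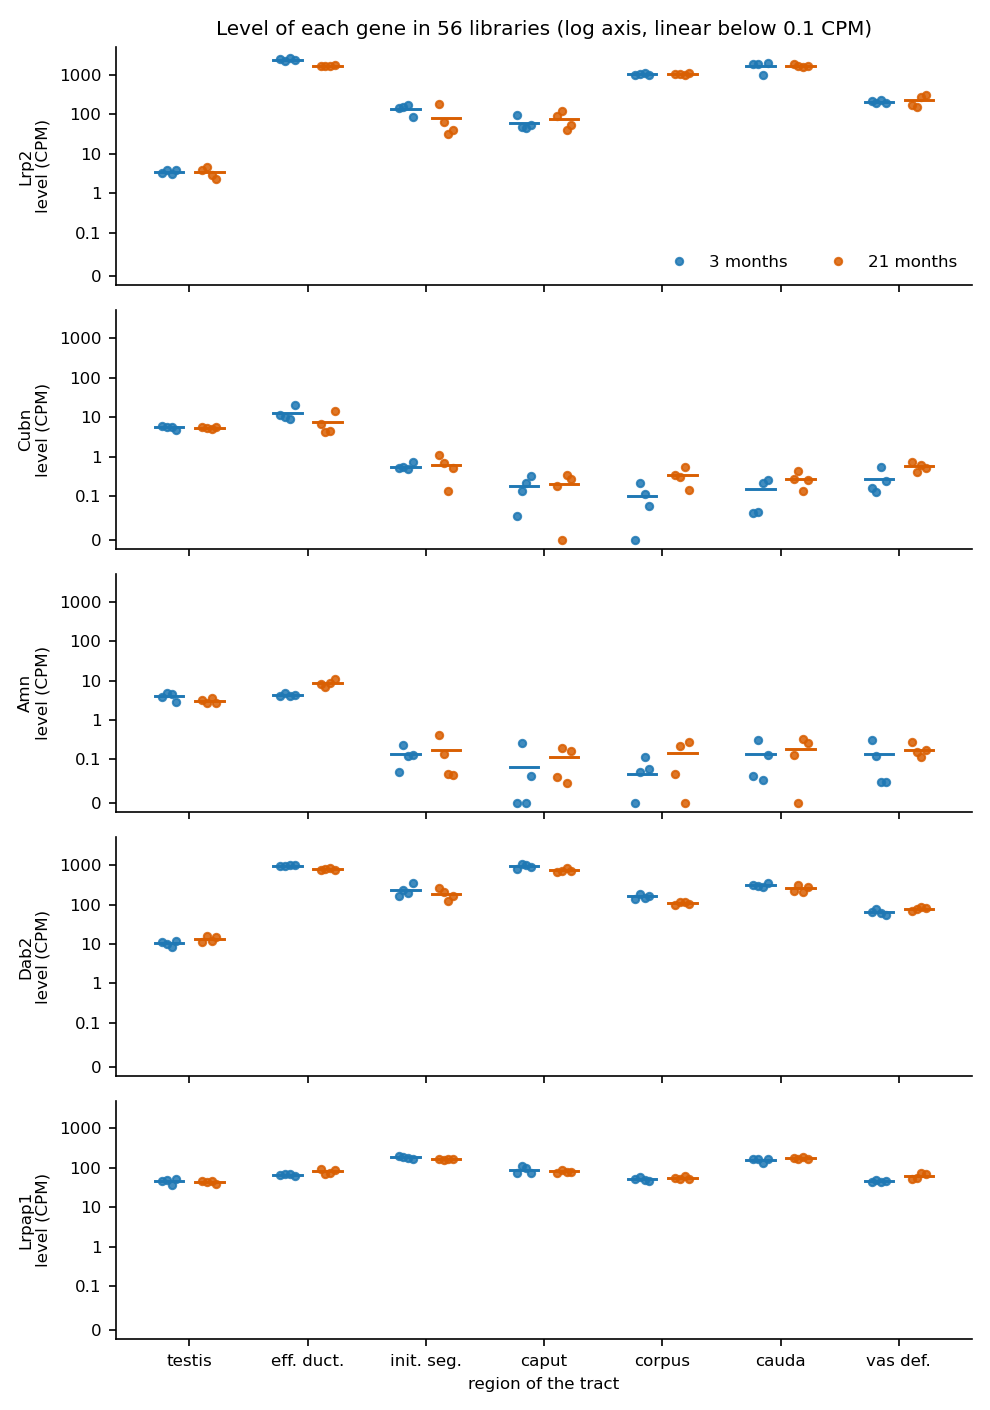
Level of each gene in every library by region (blue, 3 months; orange, 21 months; CPM on an axis that is logarithmic above 0.1 and linear below; lines, means of 4 libraries). Lrp2 is high in the efferent ductules, corpus and cauda, Dab2 in the efferent ductules and caput, and Cubn and Amn only reach 1 CPM in the testis and efferent ductules, apart from 1 initial segment library of Cubn at 1.12 CPM.

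Cubilin RNA was rare everywhere and followed another map. At 3 months the efferent ductules gave 11.2, 10.1, 8.81 and 20.3 CPM (12.6 ± 5.23) and the testis 6.01, 5.65, 5.51 and 4.65 CPM (5.46 ± 0.580), a 2.43-fold difference with no overlap (adjusted p = 0.000124). Replicate 4 of the efferent ductules stood above the other 3, with 401 counts against 161 to 211. The initial segment held 0.557 ± 0.105 CPM, from 7 to 11 counts, and each of the other 4 regions held between 0 and 11 counts in every library. At 21 months the efferent ductules gave 6.76, 4.25, 4.42 and 14.2 CPM (7.41 ± 4.67), which overlapped with the testis at 5.38 ± 0.342 CPM, and the difference did not pass the test (1.52-fold, adjusted p = 0.110). The sign of that difference rested on replicate 4, since without the libraries of that number the log2 difference was -0.05.

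Amnionless, the partner that anchors cubilin, had the map of cubilin. At 3 months the efferent ductules gave 4.03, 4.85, 4.11 and 4.36 CPM (4.34 ± 0.371) and the testis 3.78, 4.73, 4.47 and 2.82 CPM (3.95 ± 0.853), and the ranges overlapped (1.14-fold, adjusted p = 0.578). In the other 5 regions no library had more than 6 Amn counts at 3 months or more than 7 at 21 months. At 21 months the efferent ductules gave 8.16, 7.02, 8.59 and 11.02 CPM (8.70 ± 1.68) and the testis 3.03 ± 0.450, now 3.20-fold apart without overlap (adjusted p = 1.35e-05). Over the 56 libraries, log2(CPM + 1) of Cubn and Amn correlated at a Pearson's r of 0.936, while Lrp2 and Cubn gave -0.146 and Lrp2 and Amn -0.102. These are descriptions over 7 regions that share mice and scaling, not tests.

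Dab2, the clathrin adaptor of megalin, had 2 peaks, one of which was a region with little megalin. At 3 months the efferent ductules gave 934, 933, 998 and 990 CPM (963.6 ± 35.2) and the caput 805, 1035, 1003 and 899 CPM (935 ± 105), with overlapping libraries (1.07-fold, adjusted p = 0.682). The cauda held 306 ± 27.5 CPM, the initial segment 236 ± 82.6, the corpus 159.7 ± 19.5, the vas deferens 65.1 ± 9.72 and the testis 10.4 ± 1.63. The cauda and the initial segment did not differ beyond their spread (1.23-fold, adjusted p = 0.147), and the other 4 steps of the order passed the test. The order was the same at 21 months, with 781 ± 56.4 CPM in the efferent ductules and 727 ± 64.4 in the caput (1.07-fold, adjusted p = 0.664).

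The chaperone Lrpap1 was the most even of the genes. At 3 months it was highest in the initial segment, with 196, 190.3, 183 and 173 CPM (185.5 ± 10.04), and in the cauda, with 169, 171, 137 and 173 CPM (162 ± 17.2), a difference that did not pass the test (1.20-fold, adjusted p = 0.106) although the libraries did not overlap. The caput held 89.3 ± 18.6 CPM, the efferent ductules 67.4 ± 4.36, the corpus 52.0 ± 4.44, the testis 46.9 ± 6.63 and the vas deferens 46.5 ± 2.33. The testis, with the least megalin of the 7 regions, thus sat close to the vas deferens in its chaperone. The corpus lay below the efferent ductules (1.26-fold, adjusted p = 0.0340), while the corpus and testis (adjusted p = 0.0876) and the testis and vas deferens (0.257) were not separated, and the cauda and initial segment changed places at 21 months (178 ± 11.8 and 166 ± 5.54 CPM, adjusted p = 0.526).

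Counted over the 6 borders between consecutive regions, 22 of the 30 comparisons of the 5 genes passed the test at 3 months and 20 of 30 at 21 months, against 40.2% and 40.5% of all gene comparisons at the same borders. Lrp2, Dab2 and Lrpap1 passed at 6 of 6 borders at 3 months, Cubn at 3 and Amn at 1. At 21 months Dab2 and Lrpap1 again passed at 6, Lrp2 at 4, Cubn at 2 and Amn at 2. Without replicate 3 of the 3-month cauda 21 comparisons passed, and without replicate 1 of the 21-month initial segment 19 did. In both cases the comparison lost was Cubn in the caput against the initial segment, which rests on few counts (adjusted p = 0.0547 and 0.196). At 3 months it was also lost without the libraries of replicate number 1, 2 or 3 (adjusted p between 0.0655 and 0.196). The step of Lrpap1 from the testis to the efferent ductules at 3 months was lost under DESeq2 (log2 difference 0.17 against 0.57, adjusted p = 0.289).

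A gene was counted as specific to a region when its mean there was 4 times that of the remaining 6 or more, with an unadjusted p below 0.05. At 3 months 4 of the 35 pairs of gene and region qualified, where 6.86% of all such pairs did. Lrp2, Cubn and Amn qualified in the efferent ductules, at 4.71, 11.3 and 5.76 times the mean elsewhere, where 5.67% of all genes qualified. Amn qualified in the testis too, at 4.84 times, where 28.8% of all genes did. Dab2 and Lrpap1 qualified nowhere. When a gene had to reach 4 times each of the other 6 regions, none of the 5 qualified, since Lrp2 was high in the cauda and Cubn and Amn had a second site in the testis. At 21 months Cubn and Amn qualified in the efferent ductules, at 6.04 and 13.7 times, where 5.11% of all genes did, and Lrp2 did not, at 3.27 times.

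The ratio of one partner to another was compared per length of merged exons, so that long messages do not count more. In the efferent ductules of the 3-month-old mice Lrp2 was 1.1 ± 0.0631 times Dab2 (n = 4), or 0.414 ± 0.0237 times per coding length, since much of the Dab2 message is untranslated. The same ratio was 0.0293 ± 0.0161 in the caput, where Dab2 was abundant and Lrp2 scarce, 2.82 ± 0.332 in the corpus and 2.36 ± 0.564 in the cauda. The ranges of the caput and corpus, 0.0192 to 0.0531 and 2.48 to 3.17, lay far apart, and the choice of length scales every region alike. Lrp2 was 8.84 ± 0.688 times its chaperone Lrpap1 in the efferent ductules (2.74 ± 0.213 per coding length), 4.83 ± 0.405 times in the corpus, 0.181 ± 0.0470 times in the initial segment and 0.0185 ± 0.00125 times in the testis. Lrp2 exceeded Cubn per length by 190.3 ± 66.02 times in the efferent ductules but reached only 0.583 ± 0.127 times its level in the testis. Cubn was 0.360 ± 0.149 times Amn in the efferent ductules and 0.175 ± 0.0290 times in the testis.

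Of the 35 comparisons between ages, 4 passed the edgeR quasi-likelihood test at an adjusted p under 0.05, against 6.27% of all gene comparisons over the 7 regions. In the efferent ductules Lrp2 fell and Amn rose, in the corpus Dab2 fell, and in the vas deferens Lrpap1 rose. None of the 5 genes passed in the testis, initial segment, caput or cauda. When no filter on low counts was used, Dab2 passed in the testis (0.38, adjusted p = 0.0367) and the caput (-0.43, adjusted p = 0.0467). The share of all genes that passed differed between regions, at 0.563% for testis, 6.36% for initial segment, 8.14% for caput, 0.128% for cauda and 19.9% for vas deferens, and the library with high macrophage markers is among the 4 of the young cauda.

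**Figure D2:**
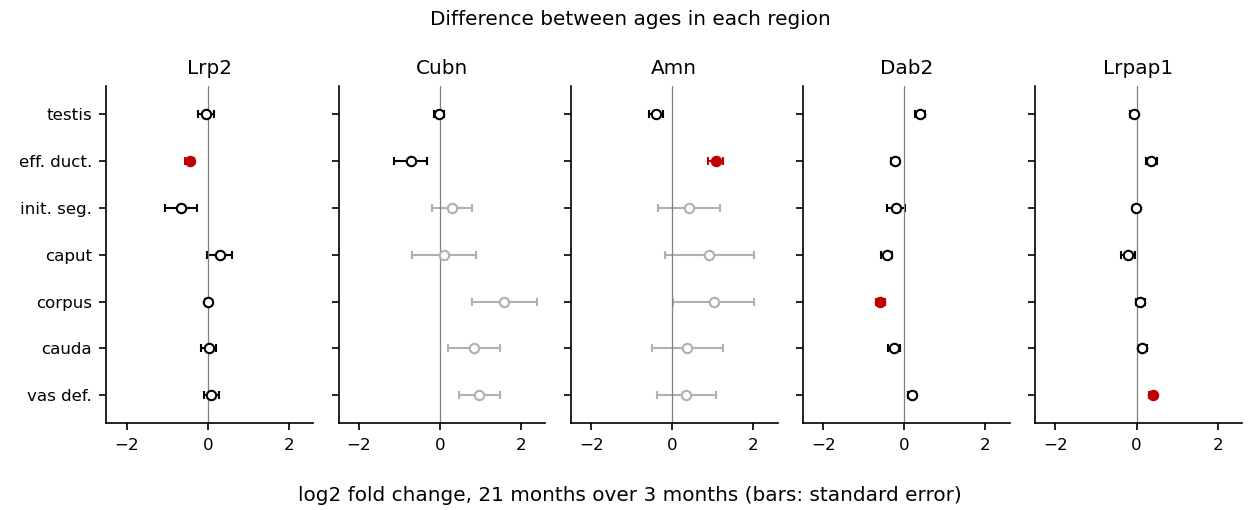
Log2 fold change between 21 and 3 months (points; bars, standard error; 4 libraries per age) of each gene in each region. Red filled points passed the edgeR test at an adjusted p under 0.05, open black points did not, and grey points rest on few counts, namely Cubn and Amn outside the testis and efferent ductules.

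In the efferent ductules the 21-month libraries gave 1640, 1622, 1640 and 1776 CPM of Lrp2, all below the 2231 CPM of the lowest 3-month library. The fitted log2 fold change was -0.45 ± 0.10 (SE; adjusted p = 0.0295), in a region where 6.99% of all genes passed. The ages did not overlap for 17.4% of all genes there. The call was lost in the fit of all 56 libraries together (-0.53, adjusted p = 0.305), and the difference did not reach a 1.5-fold threshold. It was also lost when any of the 4 young libraries, or replicate 2 or 3 of the old ones, was left out (adjusted p between 0.0524 and 0.107, with log2 fold changes between -0.47 and -0.40).

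The age difference in the efferent ductules moved with the length of the message across the genome. Among 17663 genes with a mean of at least 1 CPM there, the median log2 fold change was 0.18 for genes with under 2 kb of exon, 0.08 for 2 to 4 kb, -0.04 for 4 to 8 kb and -0.17 for 8 kb or more. Spearman's rho across genes, which are not independent replicates, was -0.253 in the efferent ductules, against values from -0.101 (corpus) to 0.132 (testis) in the other 6 regions. Offsets that follow exon length in each library, added after seeing the data, took the Lrp2 difference to -0.20 (adjusted p = 0.311), so that the call was lost. The same offsets left Amn, the shortest message of the 5, at 0.96 (adjusted p = 0.0192).

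**Figure D3:**
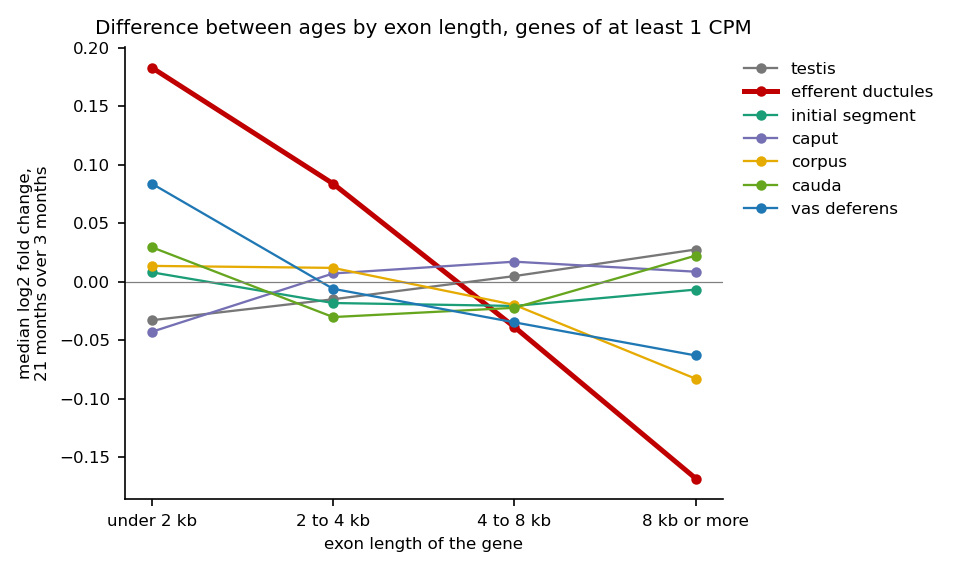
Median log2 fold change between 21 and 3 months (y axis) of all genes of at least 1 CPM, in 4 classes of exon length (x axis), 1 line per region. The line of the efferent ductules descends from 0.18 to -0.17, and no other region spans as wide a range.

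Amn rose in the efferent ductules: the 21-month values of 7.02 to 11.02 CPM lay above the 3-month values of 4.03 to 4.85 CPM, from 93 to 140 counts against 75 to 92. The log2 fold change was 1.07 ± 0.19 (SE; adjusted p = 0.0133), a 2.10-fold rise. It stayed past the threshold in 10 of 10 other settings, and the adjusted p was 0.0544 and 0.0508 without replicate 1 or 4 of the young libraries. Its partner Cubn had 6.76, 4.25, 4.42 and 14.2 CPM in the old libraries against 8.81 to 20.3 in the young, which overlapped, and the log2 fold change of -0.73 ± 0.42 did not pass (adjusted p = 0.309). Per exon length, Cubn was 0.0999 ± 0.0427 times Amn at 21 months, with a range of 0.0635 to 0.159, below the 0.258 to 0.575 of the 3-month libraries. With Gm42418 and exon length moving with age in these libraries, their part in this ratio of a long to a short message was not tested.

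Dab2 and Lrpap1 did not pass in the efferent ductules. Dab2 gave 749, 794, 855 and 727 CPM at 21 months, all below the 933 CPM of the lowest young library, with a log2 fold change of -0.23 ± 0.10 (adjusted p = 0.183), which passed with library size only (-0.57, adjusted p = 0.0146), a scaling that took the median of all genes there to -0.38. Lrpap1 gave 96.9, 68.6, 72.9 and 89.6 CPM against 62.7 to 72.0, with a log2 fold change of 0.37 ± 0.14 (adjusted p = 0.136). The ratio of Lrp2 to Lrpap1 per length was 5.11 ± 0.739 at 21 months, from 4.17 to 5.83, below the 7.856 to 9.395 of the young libraries. As above, the part of Gm42418 and exon length in this ratio of a long to a shorter message was not tested. Other cells moved in the same libraries: 6 of 12 macrophage markers rose and 1 fell, with a summed level of 610 to 831 CPM against 467 to 516, and 3 of 10 fibroblast markers fell, with 1441 to 1636 CPM against 2747 to 3802. Of the multiciliated markers 2 of 10 rose (Foxj1 and Ccdc40) and none fell, with 2106 to 2261 CPM against 1826 to 2095, without overlap. The absorptive markers summed to 2537 to 2744 CPM against 2653 to 3005, with 1 of 14 higher and 1 lower. Of the smooth muscle markers 2 of 8 rose (Cnn1 and Des), with 830.1 to 943.5 CPM against 710.2 to 787.3, without overlap. Of 7 tract region markers, not all of them epididymal, 1 rose (Adam28). Among all genes there 4% rose and 2.98% fell. The part of these shifts in the results was not tested.

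**Figure D4:**
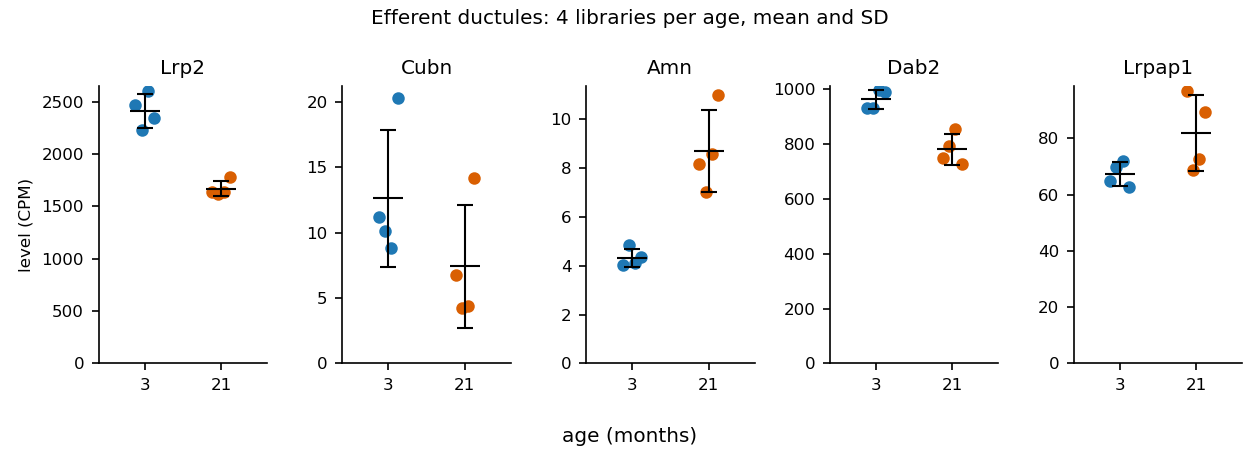
Level of each gene (CPM, linear axes from 0) in the efferent ductules of 3-month-old (blue) and 21-month-old (orange) mice, 4 libraries per age, with mean and SD in black. The ages do not overlap for Lrp2, Amn and Dab2, of which Lrp2 and Amn passed the test.

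In the corpus, Dab2 gave 99.8, 113, 113.5 and 100.5 CPM at 21 months, against 140, 185, 150.1 and 164 CPM at 3 months, without overlap. The log2 fold change was -0.59 ± 0.11 (adjusted p = 0.00648), in a region where 2.97% of all genes passed and the ages did not overlap for 8.68%, and it held without each library in turn (adjusted p of at most 0.0357). Length offsets left it at -0.55 (adjusted p = 0.00747), while the fit of all 56 libraries gave -0.58 and an adjusted p of 0.0789. Of the fibroblast markers, 10 of 10 fell in the same comparison, with 762 to 950 CPM in sum against 1634 to 3246, and none of 12 macrophage markers passed (427 to 502 against 427 to 536 CPM). The part of the fibroblast markers was not tested. Lrp2 in the corpus gave 1047, 1025, 951 and 1078 CPM against 963 to 1083, a log2 fold change of 0.00 ± 0.08 (SE; adjusted p = 0.988). A normal approximation gave a rough interval from -0.16 to 0.17, which is too narrow for a 95% interval with so few libraries.

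In the caput Dab2 gave 678, 696, 821 and 712 CPM at 21 months against 805 to 1035 at 3 months. The log2 fold change of -0.44 ± 0.14 did not pass (adjusted p = 0.0682), in a region where 8.14% of all genes did. It passed under DESeq2 (adjusted p = 0.0232), without a filter on low counts (-0.43, adjusted p = 0.0467) and when replicate 1 of the young caput was left out (adjusted p = 0.00629). Without replicate 2, the library with the most Gm42418, it was -0.31 (adjusted p = 0.119), and the Lrpap1 difference went from -0.21 to 0.0017. In the same comparison 6 of 10 fibroblast markers fell (598 to 663 CPM in sum against 875 to 1792), as did 6 of 8 smooth muscle markers (852 to 984 against 1166 to 1512 CPM), and 3 of 12 macrophage markers rose (254 to 304 against 216 to 232 CPM), while 3.09% of all genes rose and 5.05% fell. Of 10 germ cell markers 3 fell (Prm1, Prm2 and Smcp), and of 8 Sertoli cell markers tested 2 fell (Aard and Sox9). The part of these markers in the caput results was not tested.

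In the vas deferens, Lrpap1 gave 53.9, 57.1, 75.5 and 69.5 CPM at 21 months, above the 44.9 to 49.8 CPM at 3 months. The log2 fold change was 0.39 ± 0.10 (adjusted p = 0.0160), where 19.9% of all genes passed and the ages did not overlap for 24.2%, and it held without each library in turn (adjusted p of at most 0.0470), but the difference did not reach a 1.5-fold threshold. In the same comparison, where 11.4% of all genes rose and 8.47% fell, many marker genes moved. Smooth muscle markers rose in 5 of 8, with a sum of 13420 to 21780 CPM against 12780 to 13320, multiciliated cell markers in 4 of 10 and macrophage markers in 4 of 12, and fibroblast markers fell in 7 of 10 and endothelium markers in 3 of 10. Of the 7 tract region markers (Prm2, Aqp1, Adam28, Rnase13, Spint3, Wfdc9 and Akr1b7), 3 rose (Adam28, Spint3 and Wfdc9) and 2 fell (Akr1b7 and Aqp1). Their sum, which is not a measure of epididymal RNA alone, was 10440 to 17150 CPM against 20080 to 22710. Of 14 absorptive markers 3 rose and 2 fell. The part of these markers in the result was not tested. Megalin varied widely among the old libraries there, with 168, 156, 271 and 308 CPM against 189 to 222, and its difference of 0.08 ± 0.19 did not pass (adjusted p = 0.792). The 2 libraries with the most Lrp2 were also those with the most absorptive markers, at 604 and 690.3 CPM against 424 and 482.

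The initial segment is the region where 1 library decided the value for megalin. The 21-month libraries gave 180, 64.1, 30.6 and 39.4 CPM against 139, 151, 172.5 and 84.5 at 3 months, and the log2 fold change of -0.66 ± 0.40 did not pass (adjusted p = 0.418). Replicate 1, at 180 CPM, is the library with the most multiciliated markers, and it also held 19 Cubn and 7 Amn counts against 2 to 10 and 1 to 2 in the other 3. Without it the old libraries ranged from 30.6 to 64.1 CPM, below the lowest young library, and the log2 fold change was -1.44 (adjusted p = 0.00138), a call that rests on leaving out that library. In the young libraries replicate 4 had both the lowest Lrp2 and the lowest multiciliated sum (143 CPM against 184 to 214). The orders did not match throughout, since young replicate 2 had the highest sum (214 CPM) but replicate 3 the most Lrp2, and old replicate 2 had a higher sum than young replicate 4 (169 against 143 CPM) with less Lrp2 (64.1 against 84.5 CPM). With all 8 libraries, where 3.35% of all genes rose and 3.01% fell, 8 of 10 germ cell markers fell (15.04 to 36.2 CPM in sum against 41.1 to 141), as did 7 of 10 fibroblast markers (739 to 913 against 1152 to 1811 CPM) and 2 of 8 smooth muscle markers (1938 to 2308 against 2744 to 3199 CPM). Of 12 macrophage markers 4 rose (348 to 427 against 309 to 342 CPM), and none of the multiciliated markers passed. Multiciliated cells are a cell type of the efferent ductules, and the part of any of these markers in the Lrp2 values was not tested. In the testis and cauda the Lrp2 differences were -0.04 ± 0.19 (adjusted p = 0.968) and 0.02 ± 0.19 (adjusted p = 0.976), the latter -0.15 without replicate 3 of the young cauda (adjusted p = 0.709).

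**Figure D5:**
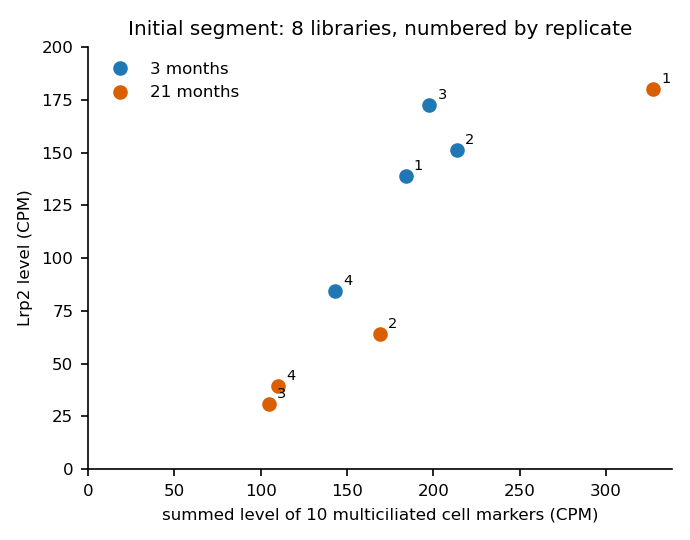
Lrp2 level (y axis, CPM) against the summed level of 10 multiciliated cell markers (x axis, CPM) in the 8 initial segment libraries, numbered by replicate (blue, 3 months; orange, 21 months). Replicate 1 of the 21-month-old mice lies at the upper right, at 327 and 180 CPM, and the other 3 old libraries lie at 30.6 to 64.1 CPM of Lrp2.

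Whether the age difference itself varied between regions was tested with the 6 interaction terms of a fit to all 56 libraries, which 20.2% of all genes passed. Dab2 (adjusted p = 0.0135) and Lrpap1 (adjusted p = 0.0216) passed, while Cubn (0.0920), Amn (0.218) and Lrp2 (0.298) did not. The Dab2 differences ran from -0.59 in the corpus to 0.38 in the testis, and those of Lrpap1 from -0.21 in the caput to 0.39 in the vas deferens. Without replicate 1 of the old initial segment Lrp2 passed as well (adjusted p = 0.00145). With length offsets Dab2 passed (adjusted p = 0.0311) and Lrpap1 did not (0.0819), and when the libraries of replicate number 2, 3 or 4 were left out none of the 5 passed. Without those of number 1, Lrp2 (0.0191) and Dab2 (0.0205) passed. Under DESeq2 Amn passed as well (adjusted p = 0.0174), with library size only Cubn passed (0.0410) and Lrpap1 did not (0.504), and without a filter Lrpap1 did not (0.0821). Set against the mean of the other 6 regions, the Lrpap1 difference of the vas deferens was 0.43 ± 0.13 higher (adjusted p = 0.0221, background 7.7%) and the Cubn difference of the efferent ductules -1.41 ± 0.39 apart, thus lower (adjusted p = 0.0307, background 3.76%), the latter against regions that mostly hold a handful of Cubn counts.

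The partners of the complex outside these 5 genes were followed in 6 lists of 105 genes in all: the LDL receptor family, ligands, adaptors and coat proteins, endosome and lysosome proteins, other uptake receptors, and transcription regulators. By the definition above, 9 of 25 ligands, 5 of 15 regulators and 1 of 12 other uptake receptors were specific to the efferent ductules at 3 months, but none of 13 LDL receptor family genes, 18 adaptor genes or 22 endosome genes, where 5.67% of all genes were. Some of these ligands were near the floor in the efferent ductules, namely Plg (0.145 ± 0.139 CPM), Apoa1 (0.340 ± 0.180) and Ttr (1.71 ± 0.312). The count of ligands thus includes genes that were hardly expressed. Among the ligands, Lpl (lipoprotein lipase) reached 236 ± 29.9 CPM there, Plat (tissue plasminogen activator) 157 ± 27.4 and Hp (haptoglobin) 154 ± 13.8, at 4.62, 10.02 and 23.2 times the mean elsewhere. The cauda mean behind the Lpl value was 168.6 ± 290.4 CPM, and without replicate 3 of the cauda, the library with high macrophage and fibroblast markers, it was 23.4 ± 7.52 CPM (n = 3) and the ratio 8.79. Fcgrt, the neonatal Fc receptor that recycles IgG and albumin, reached 122 ± 8.24 CPM, 4.44 times that mean. Of the regulators, Esr1 (estrogen receptor alpha) reached 756 ± 59.5 CPM and Hnf4a 240.0 ± 24.7, at 11.2 and 101 times. Hnf4a is also known from the kidney proximal tubule.

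Between ages, the share of the 105 pathway genes that moved differed by region. Of 99 tested in the efferent ductules 9 rose and 8 fell, where 4% of all genes rose and 2.98% fell. The initial segment had 2 and 5 of 100 (background 3.35% and 3.01%), the caput 1 and 11 of 97 (3.09% and 5.05%), the corpus 1 and 2 of 94 (1.5% and 1.47%) and the vas deferens 15 and 18 of 96 (11.4% and 8.47%), and no pathway gene passed for the testis or cauda. All 17 that moved in the efferent ductules are named, as a list seen after the fit. Those that rose were Ap2s1, Clta, Cltb and Gipc1 of the coat, Ctsd and Rab5c of the endosome and lysosome, the ligands Apoe and Mt2, and Vdr. Those that fell there were Eps15, Fcho2, Clcn5, Ocrl, Lpl, Plat, Cd36 and Pparg. These counts depended on the setting: in the efferent ductules 5 rose and 6 fell with length offsets, 14 rose and 15 fell under DESeq2, and 1 rose and 23 fell with library size only, which moved the median of all genes there to -0.38. Under DESeq2 2 rose and 1 fell for testis and 1 rose and 1 fell for cauda. With length offsets Ap2s1, Clta, Gipc1, Rab5c, Mt2, Eps15, Fcho2 and Ocrl were no longer called, while Ctsb rose and Umod fell. The caput had 0 and 2 with library size only. The median log2 fold change of the tested pathway genes was 0.12 in the efferent ductules, beside -0.04 over all genes tested.

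Lpl was the pathway gene that passed in the most regions, and it fell in 5 of 7. Its log2 fold change was -1.37 in the efferent ductules (adjusted p = 0.0239), where it went from 236 ± 29.9 to 87.3 ± 45.2 CPM, and it was -0.86 for the initial segment, -1.23 for caput, -1.48 for corpus and -1.71 for vas deferens (adjusted p between 0.0160 and 0.0466). Fibroblast markers fell in the same 5 regions, in 3, 7, 6, 10 and 7 of 10 in that order, and in 3 of 10 for testis, where Lpl did not pass (-0.82, adjusted p = 0.228). The Lpl difference in the cauda was the largest but did not pass (-4.12 ± 1.14, SE; adjusted p = 0.209). The young cauda library with high fibroblast markers also raised the Lpl mean there, as given above. The part of the fibroblast markers in the Lpl differences was not tested. Plat fell by 0.73 on the log2 scale in the efferent ductules (adjusted p = 0.0146), from 157 ± 27.4 to 89.1 ± 14.2 CPM. It did not pass elsewhere, with -0.32 in the initial segment (adjusted p = 0.101) and -0.31 in the cauda (adjusted p = 0.569), and whether the regions differ was not tested. Hp, Fcgrt, Hnf4a and Esr1 did not pass in the efferent ductules. Esr1 gave 605 ± 28.3 CPM at 21 months (adjusted p = 0.130), and Hnf4a 244 ± 31.4 (adjusted p = 0.582). In the vas deferens Hnf4a rose from 0.0766 to 1.096 CPM (adjusted p = 0.0102).

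The genes whose pattern was most like each member were found by Pearson's r of log2(CPM + 1) over the 56 libraries, among genes that reached a mean of 10 CPM in some group. Glis3 (0.976), Serping1 (0.959) and Mgat3 (0.958) were most like Lrp2, and Glis3 had 309 CPM in the efferent ductules, 221.5 in the cauda and 6.05 in the testis at 3 months. Cdh16 (0.963), Tspan3 (0.940) and Cx3cl1 (0.937) were most like Dab2, with Cdh16, a cadherin also known from the kidney, at 375 CPM in the efferent ductules and 376 in the caput. Ceacam20 (0.961), Rsph10b (0.958) and Lhb (0.956) were most like Cubn, and Lhb (0.975), Fam92b (0.970) and Tmem107 (0.969) were most like Amn. Rsph10b, a radial spoke protein of motile cilia, had 65.9 CPM in the testis and 83.9 in the efferent ductules. Fam210b (0.927), Nav3 (0.910) and Cryba4 (0.860) were most like Lrpap1. The choice depended on the measure: of the first 3 genes, Spearman's correlation kept 1 for Lrp2, Amn and Lrpap1 and 0 for Cubn and Dab2, and a pseudocount of 0.1 kept 3 for Lrpap1, 2 for Lrp2 and Dab2 and 1 for Cubn and Amn. These correlations describe libraries that share regions and scaling, and no more is drawn from them.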

How the data were processed

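Total RNA of 7 regions of the male tract was sequenced from a stranded library kit at 3 and 21 months of age. The RNA kit is named differently in the labels and in the study's methods. The authors deposited 1 table of raw counts per gene, unnormalized, in 56 columns, for 53379 Ensembl genes. Cutadapt, HISAT2, HTSeq and the build mm10 are named in the submitters' processing notes, and their versions, the annotation release and the strand setting are not given in the sources used here. The study tested its counts with DESeq2. Symbols were taken from GENCODE M21 for 53274 genes.

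Counts were fitted with edgeR 4.0.16 in R 4.3.3 (TMM scaling, genes whose counts sum to 10 or more, quasi-likelihood F-test, Benjamini-Hochberg adjustment over all genes of a fit, threshold 0.05). Ages were compared within each region (8 libraries), regions within each age (28 libraries), and the interaction over all 56. The p-values treat libraries as independent, though regions share mice. The members and lists were chosen with earlier results of these data known. Named were the 5 members, pathway genes that passed between ages in at least 4 of 7 regions, up to 3 genes a list with the highest CPM among those specific to the efferent ductules, and the 3 genes most like each member by Pearson's r of log2(CPM + 1). One gene that the rule selects is not reported here. Other settings tried were DESeq2 1.42.0, its size factors, library size only, other filters, a replicate block, leaving out Gm42418 and 1 fit of all libraries. Also tried were a 1.5-fold threshold (with an unadjusted p between ages), each library or replicate number left out, coding length, Spearman's correlation and a pseudocount of 0.1. Length offsets (natural spline, 4 degrees of freedom) and fits without the libraries that stood apart were chosen after seeing the data. Scripts were tested on simulated data. Totals of 11125279 to 20561967 counts per library limit the precision of Cubn and Amn outside the testis and efferent ductules. Counts without molecular identifiers carry counting error and more.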

Additional observations from a re-analysis of the deposited data

Results flagged for a closer look

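Of 70 groups of 4 libraries, 4 held a library far from the other 3 by Dixon's test, which chance alone flags in about 1 in 20 groups. Lrp2 in the 3-month caput was 97.1 CPM in replicate 1 against 43.8 to 52.0 CPM. Lrp2 in the 3-month cauda was 973 CPM in replicate 3 against 1843 to 1942 CPM, and Lrpap1 in the same library was 137 CPM against 169 to 173 CPM. This is the library with high macrophage and fibroblast markers, whose part in both values was not tested. Lrp2 in the 21-month efferent ductules was 1776 CPM in replicate 4 against 1622 to 1640 CPM.

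The age difference varied between regions for Dab2 (adjusted p = 0.0135) and Lrpap1 (adjusted p = 0.0216) in edgeR's test of the 6 interaction terms. Set against the mean of the other 6 regions, it differed for Lrpap1 in the vas deferens (adjusted p = 0.0221) and for Cubn in the efferent ductules (adjusted p = 0.0307). The Cubn contrast is set against regions that, the testis apart, held 0 to 19 counts a library, and the age difference of Cubn in the efferent ductules did not itself pass (-0.73, adjusted p = 0.309).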

How the results depend on the processing

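Cubn and Amn outside the testis and efferent ductules rest on 0 to 19 counts a library, which limits what can be shown there. Of the 4 age calls, 2 remained in number with an unadjusted p below 0.05 and at least 1.5-fold, a setting that changes both the p and the fold. The number was also 2 in 1 fit of all 56 libraries and without replicate 1 or 4 of the young efferent ductules, and leaving out each library gave 2 to 5. There were 6 without a filter, 5 with DESeq2, 5 with library size only, 3 with the replicate block and 3 with length offsets. Leaving out libraries, the number of members whose age effect differed between regions ranged from 0 to 3 (2 with all libraries, 3 without replicate 1 of the old initial segment), and it was 1 without a filter and 1 with length offsets. No gene was specific to a region against each of the other 6 (0 pairs of gene and region, against 4 pairs by the mean of the other 6). Library size alone took the median of all genes between ages to -0.38 in the efferent ductules, where TMM gave -0.04, and there 405 of 5288 calls were higher against 1039 of 1813. With the replicate number as a block, Lrp2 in the efferent ductules was -0.45 (adjusted p = 0.0856), and 3 pathway genes rose and 7 fell there, against 9 and 8, with 4 and 5 in the corpus, against 1 and 2, and 2 and 1 in the testis, against 0 and 0. Same-numbered libraries were not shown to be paired (mean correlation of deviations 0.0301 at 3 months, 0.00251 at 21 months and 0.0209 between ages), so the block is only a shared number.

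Some differences that did not pass changed sign, and the causes were not tested. With library size only these were Lrpap1 in the caput (0.0908) and corpus (-0.0758), Lrp2 in the corpus (-0.16) and cauda (-0.0135), Amn in the corpus against the caput at 21 months (-0.0425) and Cubn in the cauda against the corpus at 21 months (0.0444). Others were Lrpap1 in the initial segment with length offsets (0.0072), Lrp2 in the corpus without a filter (-0.0026), Lrp2 in the cauda in 1 fit of all libraries (-0.00119), Amn in the efferent ductules against the testis at 3 months with DESeq2 (-0.22) or its size factors (-0.22), and Amn in the vas deferens against the cauda at 3 months without Gm42418 (-0.0176).

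With single libraries left out, log2 differences between ages ranged as follows. In the testis Lrp2 ranged from -0.22 to 0.10 and Cubn from -0.0883 to 0.0261. In the initial segment Lrpap1 ranged from -0.0408 to 0.0179, Amn from -0.45 to 0.76, Dab2 from -0.36 to 0.0801 and Cubn from -0.14 to 0.62. In the caput Lrpap1 ranged from -0.32 to 0.0017, Lrp2 from -0.0312 to 0.58 and Cubn from -0.26 to 0.50. Lrp2 ranged from -0.0065 to 0.0188 in the corpus, from -0.15 to 0.0878 in the cauda and from -0.12 to 0.23 in the vas deferens, and Amn from -0.0795 to 1.11 in the cauda. Between regions, the fits left out all libraries of a replicate number together, or only the library that stood apart. At 3 months Amn then ranged from -0.58 to 1.42 (corpus against caput) and from -0.91 to 0.94 (vas deferens against cauda). In the same kind of fits at 21 months, Cubn ranged from -0.0495 to 0.65 (efferent ductules against testis) and from -0.61 to 0.30 (cauda against corpus). Lrp2 ranged from -0.51 to 0.64 and Amn from -1.11 to 0.37 (caput against initial segment), and Amn from -0.53 to 0.87 (cauda against corpus) and from -0.29 to 0.60 (vas deferens against cauda).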
